A study of Malus x robusta with 27 samples.

Results

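Chalcone synthases and chalcone isomerases were taken from the annotation of the expression table as all genes whose description holds a chalcone and stilbene synthase domain (PF00195 or PF02797) or a chalcone isomerase domain (PF02431 or PF16035). The rule used no expression value. It gave 28 of 48445 genes, of which 18 carried a synthase domain and 10 the isomerase domain PF02431, and no gene carried PF16035. Of the 18 synthase genes, 12 held both the N-terminal and the C-terminal domain. RNA was measured in whole flowers, sampled individually, of 3 crabapple (Malus × robusta) materials. SF is a strongly fragrant and WF a weakly fragrant progeny individual of M. robusta, and Mr is standard M. robusta. The Mr trees were 7 years old (no age of SF and WF was used here), no treatment was given, and each material was sampled at the early balloon stage (EB), the early flowering stage (ES) and the late flowering stage (LS). There were 27 libraries, 3 biological replicates for every material and stage. Since SF and WF are each 1 tree, a difference between materials is a difference between these trees, and the p-values below measure the spread between replicate libraries. How many flowers made up a library is not given, and a library is also called a flower below.

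Chalcone synthase joins p-coumaroyl-CoA with malonyl-CoA units to a chalcone, the first committed step of flavonoid synthesis. Chalcone isomerase closes the chalcone to a flavanone, from which flavonols, anthocyanins and other petal pigments are made. The synthase domains are shared with stilbene synthases and other type III polyketide synthases, and the isomerase fold is shared with plant proteins that bind fatty acids or assist chalcone synthase without catalysing the ring closure. A domain therefore does not show which reaction a gene's product carries out, and the genes are named here by their identifiers.

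Values are FPKM, fragments scaled to gene length and to a size factor of the library that followed a median-of-ratios scaling, so levels are per length. The libraries held 16146228 to 29558381 fragments on genes, with a median of 19419905. Of 50 genes with a MADS box and a K-box, the domain pair of floral organ identity factors, 43 reached an FPKM of 1 in at least 3 libraries. The summed FPKM of all 50 was 1693.2 to 3108.8, lowest in WF at LS (1693.2 to 2259.9). In 2 libraries, genes near 0 in the rest of a material were present at a share of their level in WF: the median share was 17.33% over 51 genes in Mr replicate 2 at LS (quartiles 12.24% and 21.95%) and 7.203% over 28 genes in SF replicate 1 at LS (quartiles 3.003% and 9.506%). The same check gave 8.885% of the SF level over 70 genes in Mr replicate 2 and 4.179% of the Mr level over 18 genes in SF replicate 1. Of these, 62 and 15 genes exceeded 0.1 FPKM in at least 1 WF library, and of the others none of 8 and none of 3 exceeded 0.1 FPKM in the 2 libraries. Over the other 25 libraries the median was 0% in all 40 checks that held 5 or more genes, and the Mr libraries at EB and ES had no gene to check against WF. At LS, Mr replicates 1 and 3 had 1 gene each to check against WF, at 0.8829% and 1.025%. SF replicates 2 and 3 at LS had 4 genes each, with a median of 0%. The check therefore cannot show that these libraries held no WF transcripts. Mr replicate 2 and SF replicate 1 at LS are below called libraries that held WF transcripts. This names the pattern only: no label says that RNA was mixed, and the cause was not tested. The counts of called genes at LS are given with and without these libraries.

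Of the 28 genes, 15 reached an FPKM of 1 in at least 3 libraries and entered the tests, 6 with a synthase domain and 9 with the isomerase domain, and each of them did so in at least 21 libraries. The other 13, 12 of them synthase genes, were near 0 in most libraries and are described last. Among the 15, HF00720 had the highest mean over all libraries at 375.6 FPKM, followed by the isomerase gene HF25114 at 152.3 FPKM and the synthase gene HF00721 at 126.3 FPKM. The mean of the next genes was 82.3 FPKM for HF23861, 59.99 FPKM for HF35684, 37.5 FPKM for a newly assembled isomerase gene, 32.9 FPKM for HF24200, 29.0 FPKM for HF25490, 28.2 FPKM for HF00723, 22.6 FPKM for HF21441 and 16.0 FPKM for HF24202. The lowest 4 were HF03067 at 6.17 FPKM, HF26997 at 5.57 FPKM, HF26996 at 4.67 FPKM and HF28154 at 1.78 FPKM. HF00720 made up 52.4% (SF at EB) to 69.8% (Mr at ES) of the summed FPKM of the 6 synthase genes in every group.

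The synthase genes HF00720, HF00721 and HF00723 lie close together on chromosome 4 of the apple HFTH1 genome, the build of the deposited coordinates. HF00720 spans 406790 to 408597 on the plus strand and HF00721 spans 412728 to 414059 on the minus strand, 4130 bases apart with no gene model between them. HF00723 (425615 to 438507, plus strand) is a model of 2841 bases whose description also lists a DnaJ domain and a domain of unknown function, so its level may not be that of a synthase transcript alone. HF35684 lies on chromosome 13 (42962304 to 42964694, plus strand). How the authors' counting treated reads shared by near-identical genes is not given in the sources used here, and the division of reads among these 4 genes is uncertain to that extent.

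HF00720 was highest in Mr at every stage. In Mr it stood at 1109.8, 1419.8 and 847 FPKM at EB, at 614, 798 and 656 FPKM at ES, and at 953, 745 and 686 FPKM at LS. In SF it stood at 49.7, 78.0 and 109.85 FPKM at EB, at 217, 165 and 91.2 FPKM at ES, and at 150.1, 54.8 and 43.5 FPKM at LS. In WF it stood at 325, 169 and 102 FPKM at EB, at 111, 92.6 and 116 FPKM at ES, and at 29.8, 329 and 79.3 FPKM at LS. Every Mr library lay above every SF and WF library, SF and WF overlapped at all 3 stages, and as a ratio of the highest to the lowest flower the spread within SF and WF was widest at LS.

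HF00721 followed the same order with larger ratios. In Mr it stood at 556, 795 and 446 FPKM at EB, at 171, 181 and 189.8 FPKM at ES, and at 248, 207 and 193 FPKM at LS. In SF it stood at 7.66, 7.50 and 15.7 FPKM at EB, at 48.6, 39.6 and 13.8 FPKM at ES, and at 28.0, 4.34 and 1.63 FPKM at LS. The WF libraries held 65.5, 29.2 and 20.7 FPKM at EB, 17.6, 17.6 and 22.3 FPKM at ES, and 0.816, 72.6 and 9.11 FPKM at LS. The 3 WF flowers at LS thus differed by a larger ratio than the flowers of any other group, with replicate 1 the lowest and replicate 2 the highest, as for HF00720.

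HF35684 stood at 193, 272 and 159.6 FPKM in Mr at EB, at 82.4, 82.4 and 91.8 FPKM at ES, and at 125, 109 and 86.7 FPKM at LS. In SF it held 27.01, 33.5 and 34.9 FPKM at EB, 36.5, 36.4 and 32.1 FPKM at ES, and 25.8, 3.42 and 1.39 FPKM at LS. In WF it held 41.7, 19.9 and 11.9 FPKM at EB, 11.3, 9.25 and 10.4 FPKM at ES, and 0.862, 73.5 and 7.46 FPKM at LS. It was the synthase gene for which SF and WF did not overlap at ES. HF00723 varied least of these 4 genes: its Mr libraries held 70.2, 88.2 and 50.2 FPKM at EB, 29.9, 24.1 and 29.9 FPKM at ES, and 30.6, 35.5 and 33.7 FPKM at LS. Its SF libraries held 15.3, 16.6 and 18.1 FPKM at EB, 20.4, 21.5 and 17.8 FPKM at ES, and 18.9, 16.9 and 16.3 FPKM at LS, and its WF libraries 35.4, 21.1 and 20.1 FPKM at EB, 16.3, 18.3 and 16.4 FPKM at ES, and 20.8, 40.7 and 18.6 FPKM at LS.

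The remaining synthase genes of the tests, HF26997 (chromosome 2, 26589249 to 26589941) and HF26996 (26589984 to 26590506), are short neighbouring models on the minus strand with 42 bases between them. Their lengths are 693 and 315 bases, and the description of HF26996 lists the N-terminal domain only. Whether these models are parts of 1 gene was not tested, and they are counted as 2 genes here. They were mostly lower in Mr, the opposite of the other 4. At ES, HF26997 stood at 2.99, 2.41 and 1.93 FPKM in Mr against 7.92, 8.55 and 6.53 FPKM in SF and 6.70, 9.01 and 6.72 FPKM in WF. At EB it held 6.58, 7.92 and 7.80 FPKM in SF, 4.17, 5.39 and 4.80 FPKM in WF and 5.10, 4.71 and 4.32 FPKM in Mr, and at LS 5.87, 7.72 and 6.86 FPKM in SF, 6.03, 5.53 and 5.78 FPKM in WF and 2.82, 2.54 and 3.77 FPKM in Mr. Mr did not overlap SF at any stage and overlapped WF at EB. HF26996 stood at 3.58, 8.42 and 4.80 FPKM in SF, 5.18, 5.53 and 4.33 FPKM in WF and 2.68, 2.48 and 3.32 FPKM in Mr at EB. It held 8.85, 6.22 and 7.18 FPKM in SF, 3.93, 6.56 and 6.29 FPKM in WF and 2.69, 1.43 and 1.80 FPKM in Mr at ES, and 4.30, 5.86 and 6.81 FPKM in SF, 6.25, 4.89 and 5.51 FPKM in WF and 2.24, 2.14 and 2.71 FPKM in Mr at LS. All 9 Mr libraries of HF26996 lay below all SF and WF libraries of the same stage, at levels that rest on few fragments (7 to 65 per library).

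**Figure D1:**
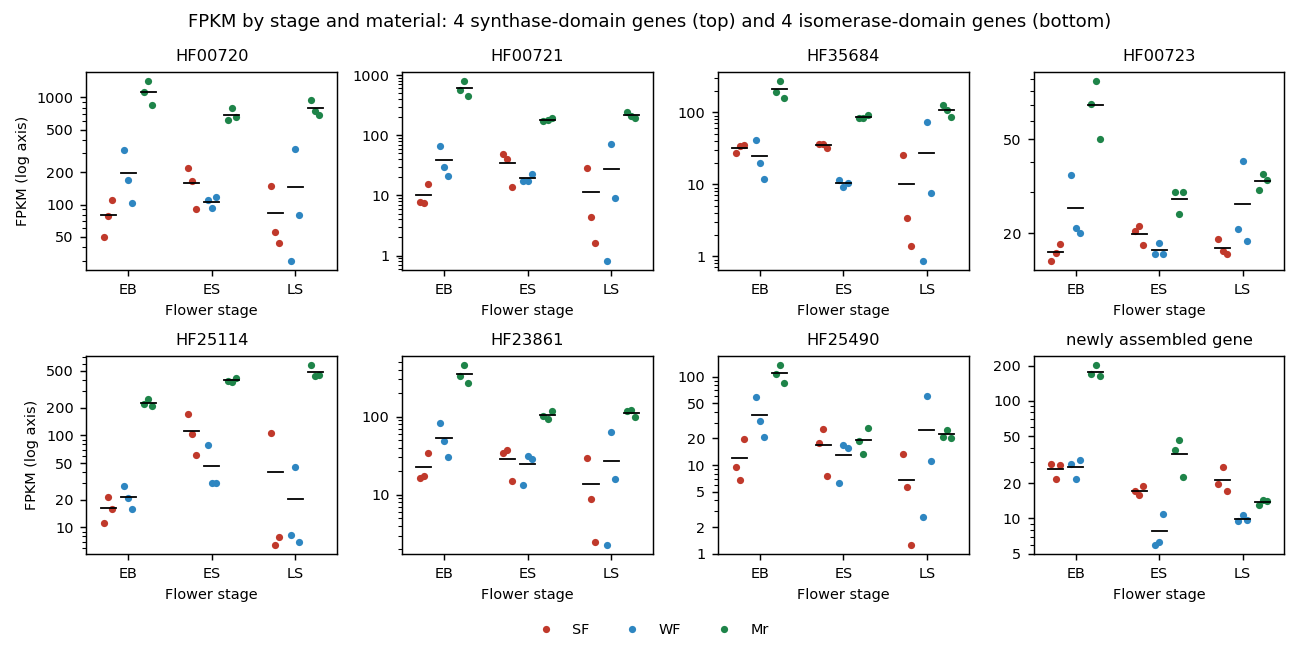
FPKM (log axis) of 4 synthase-domain genes (top row) and 4 isomerase-domain genes (bottom row) at EB, ES and LS, with a point for each library of SF, WF and Mr and a line at the mean of 3. Every Mr library of HF00720, HF00721, HF35684 and HF25114 lies above the SF and WF libraries of its stage, and the SF and WF points of HF00720, HF00721 and HF35684 spread widest at LS on the log axis.

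Among the isomerase genes, HF25114 (chromosome 7, 25848290 to 25850398, minus strand) was the highest. In Mr it stood at 217, 249 and 209 FPKM at EB, at 391, 379 and 421 FPKM at ES, and at 577, 443 and 457 FPKM at LS. In SF it stood at 11.3, 21.2 and 16.0 FPKM at EB, at 170.4, 103 and 61.4 FPKM at ES, and at 107, 6.43 and 7.82 FPKM at LS. In WF it stood at 28.3, 20.6 and 15.8 FPKM at EB, at 79.2, 30.3 and 30.0 FPKM at ES, and at 8.29, 45.2 and 7.02 FPKM at LS. Every ES flower lay above every EB flower of its own material, and at LS a single SF flower, replicate 1, lay far above the other SF flowers.

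HF23861 (chromosome 1, 27202406 to 27203577, minus strand) stood at 335, 454 and 271 FPKM in Mr at EB, at 101, 93.7 and 118 FPKM at ES, and at 118, 120.3 and 97.9 FPKM at LS. In SF it held 16.2, 17.3 and 34.5 FPKM at EB, 34.4, 37.5 and 15.1 FPKM at ES, and 29.7, 8.85 and 2.46 FPKM at LS. In WF it held 81.8, 48.4 and 30.2 FPKM at EB, 13.3, 31.1 and 29.1 FPKM at ES, and 2.27, 63.6 and 15.7 FPKM at LS. Unlike HF25114, it was highest in Mr before opening. HF25490 (chromosome 7, 30010452 to 30013386, minus strand) showed the same flowers high and low at a lower level: 107, 134 and 85.1 FPKM in Mr, 59.0, 31.1 and 20.8 FPKM in WF and 9.48, 6.83 and 19.9 FPKM in SF at EB. It held 18.5, 13.4 and 26.2 FPKM in Mr, 6.20, 16.9 and 15.7 FPKM in WF and 17.5, 25.4 and 7.47 FPKM in SF at ES, and 20.8, 25.2 and 20.5 FPKM in Mr, 2.59, 60.7 and 11.0 FPKM in WF and 13.4, 5.73 and 1.25 FPKM in SF at LS. The materials were separate for HF25490 at EB and overlapped at ES, and WF overlapped the other materials at LS.

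Another group of isomerase genes lies between 23669736 and 23743143 on chromosome 1, all on the minus strand: HF24202 (23669736 to 23679502), HF24200 (23691004 to 23708382) and a newly assembled gene (23740356 to 23743143), here called the newly assembled isomerase gene. The descriptions of HF24200 and HF24202 also list a carbohydrate-binding malectin-like domain (PF12819), so their levels may not be those of an isomerase transcript alone. At EB, the newly assembled isomerase gene stood at 168, 201 and 163 FPKM in Mr, 29.1, 21.7 and 28.4 FPKM in SF and 29.0, 21.9 and 31.5 FPKM in WF. At ES it held 38.0, 46.5 and 22.6 FPKM in Mr, 17.1, 15.7 and 18.9 FPKM in SF and 5.94, 6.37 and 11.0 FPKM in WF, and at LS 13.1, 14.5 and 14.1 FPKM in Mr, 19.8, 27.1 and 17.2 FPKM in SF and 9.55, 10.7 and 9.75 FPKM in WF. At LS its order had turned, with all SF flowers above all Mr flowers and all Mr flowers above all WF flowers, a difference that passed the test for WF against Mr alone.

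HF24200 was high in Mr at EB only, at 83.4, 97.7 and 93.0 FPKM against 31.1, 30.8 and 29.4 FPKM in SF and 37.4, 27.3 and 34.9 FPKM in WF. It stood at 29.0, 30.9 and 24.8 FPKM in Mr, 23.7, 24.3 and 21.7 FPKM in SF and 20.3, 15.7 and 22.9 FPKM in WF at ES, and at 29.0, 20.5 and 19.3 FPKM in Mr, 20.7, 30.3 and 29.8 FPKM in SF and 24.5, 16.7 and 19.8 FPKM in WF at LS. The mean of HF24202 was lower at each later stage in all 3 materials, from 31.2 FPKM (Mr at EB) to 8.36 FPKM (WF at LS). Its Mr flowers held 30.2, 32.3 and 31.0 FPKM at EB, 16.2, 18.2 and 17.0 FPKM at ES, and 13.2, 13.5 and 15.5 FPKM at LS. Its SF flowers held 15.6, 19.0 and 13.3 FPKM at EB, 11.8, 12.5 and 11.6 FPKM at ES, and 6.81, 8.997 and 10.5 FPKM at LS, and its WF flowers 22.3, 17.8 and 20.4 FPKM at EB, 18.6, 15.1 and 15.1 FPKM at ES, and 8.15, 9.52 and 7.40 FPKM at LS.

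HF21441 (chromosome 8, 5506239 to 5519002, minus strand), a model that joins an isomerase domain with a glycosyl hydrolase family 9 domain of the kind found in cellulases, was high where several of the other genes were low. In Mr it stood at 3.32, 2.16 and 4.30 FPKM at EB, at 34.1, 30.5 and 29.5 FPKM at ES, and at 18.3, 13.8 and 8.82 FPKM at LS. In SF it stood at 18.5, 27.4 and 13.0 FPKM at EB, at 22.4, 18.1 and 55.6 FPKM at ES, and at 22.7, 32.4 and 36.1 FPKM at LS. In WF it stood at 5.50, 7.65 and 7.77 FPKM at EB, at 33.3, 16.5 and 30.8 FPKM at ES, and at 67.6, 10.1 and 40.1 FPKM at LS. At EB the 3 materials were separate, with SF highest and Mr lowest.

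The lowest isomerase genes were HF03067 (chromosome 3, 33415610 to 33417868, minus strand) and HF28154 (chromosome 11, 38487883 to 38495352, minus strand), both highest at EB. HF03067 held 13.0, 10.4 and 10.1 FPKM in SF, 6.74, 6.77 and 8.76 FPKM in WF and 8.58, 12.3 and 9.65 FPKM in Mr at EB. It held 5.43, 6.24 and 5.40 FPKM in SF, 3.85, 4.62 and 4.16 FPKM in WF and 6.21, 3.99 and 5.65 FPKM in Mr at ES, and 5.64, 4.48 and 2.43 FPKM in SF, 0.860, 2.90 and 1.79 FPKM in WF and 6.88, 5.33 and 4.34 FPKM in Mr at LS. HF28154 held 2.71, 1.99 and 3.21 FPKM in SF, 2.84, 2.77 and 2.11 FPKM in WF and 2.91, 3.23 and 3.50 FPKM in Mr at EB. At ES it held 1.73, 1.79 and 1.44 FPKM in SF, 1.37, 1.06 and 1.60 FPKM in WF and 2.26, 1.40 and 2.01 FPKM in Mr, and at LS 0.981, 0.212 and 0.533 FPKM in SF, 0, 0.268 and 0.222 FPKM in WF and 2.50, 1.37 and 2.15 FPKM in Mr. At LS all Mr flowers of both genes lay above all WF flowers, while HF03067 overlapped between Mr and SF. HF28154 rests on few fragments at LS, 17, 3 and 8 in the SF libraries and 0, 5 and 4 in the WF libraries. For this gene 3 fragments correspond to 0.109 to 0.222 FPKM.

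**Figure D2:**
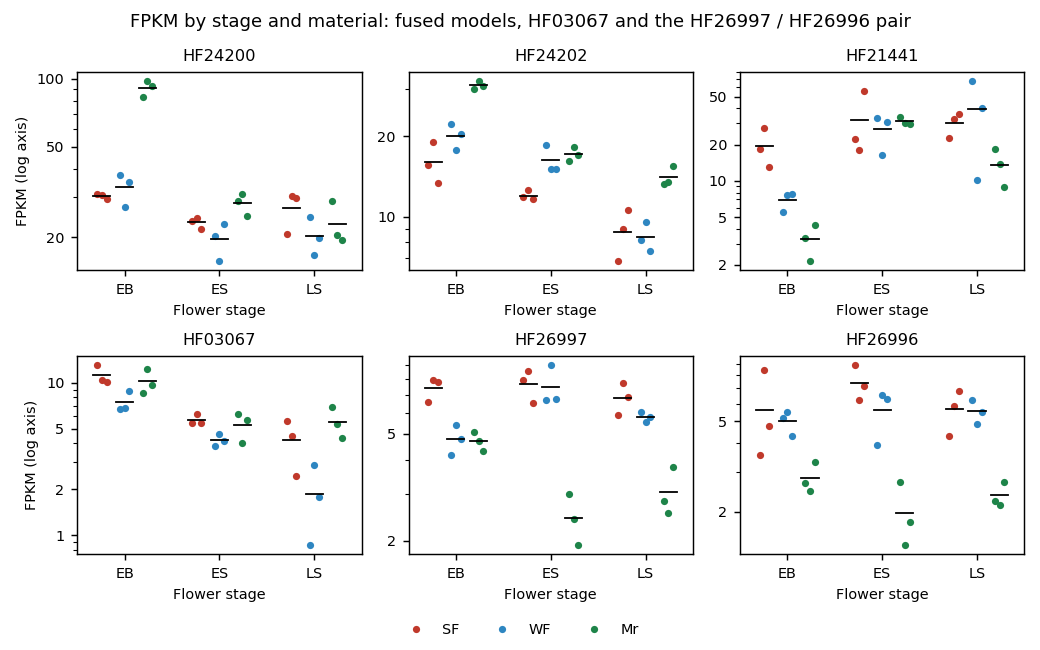
FPKM (log axis) of the models that join an isomerase domain with another domain (HF24200, HF24202, HF21441), of HF03067 and of the neighbouring synthase models HF26997 and HF26996, with a point for each library of SF, WF and Mr and a line at the mean of 3. HF21441 at EB runs from Mr (2.16 to 4.30 FPKM) through WF to SF (13.0 to 27.4 FPKM), and HF26996 is lowest in Mr at every stage.

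The first question was how the genes differ between the materials at each stage. Differences were tested with limma on log2(FPKM + 1) over 29660 genes, a scale that understates the change of low genes, and a gene was called at an adjusted p under 0.05 (Benjamini-Hochberg). Fold changes of the 15 genes below are on this log2 scale, as is the order of rises and falls, and the times higher or lower are ratios of mean FPKM. In whole flowers, fewer cells that express a gene and less RNA of it per cell cannot be told apart. The comparisons with Mr at a stage share the Mr libraries.

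At EB, the main synthase and isomerase genes were lower in SF and WF than in Mr. Against Mr, 12 of the 15 genes were called in SF, where 41% of all genes tested were called, and 12 in WF, where 35.3% were called. In both comparisons the 10 that were lower were HF00720, HF00721, HF35684, HF00723, HF25114, HF23861, HF25490, the newly assembled isomerase gene, HF24200 and HF24202. HF00721 gave the largest fall: the mean was 10.3 ± 4.67 FPKM (SD, n = 3) in SF and 599 ± 179 FPKM in Mr, 58.3 times higher, with a log2 fold change of -5.77 (SE 0.33, limma adjusted p = 0.0001863). In WF, HF00721 was 15.6 times lower than in Mr (log2 fold change -4.05, SE 0.44, limma adjusted p = 0.001341). HF00720 was 14.2 times lower in SF (-3.85, SE 0.33, limma adjusted p = 0.0006223) and 5.66 times lower in WF (-2.62, SE 0.43, limma adjusted p = 0.005806). HF25114 was 13.9 times lower in SF (-3.75, SE 0.22, limma adjusted p = 0.0001897) and 10.4 times lower in WF (-3.36, SE 0.20, limma adjusted p = 0.0001968).

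The exceptions at EB were 2 genes per comparison. HF21441 was higher than in Mr, by 2.25 in SF (SE 0.31, limma adjusted p = 0.003254) and by 0.92 in WF (SE 0.23, limma adjusted p = 0.02413). HF26997 was also called higher in SF and HF26996 in WF. The median log2 fold change of the 15 genes was -1.96 in SF against Mr, where that of all genes was 0.01, and -1.44 in WF against Mr, where that of all genes was 0.02. The summed FPKM of the 6 synthase genes was 2010.3 ± 539.9 in Mr (SD, n = 3), 151 ± 40.7 in SF and 297 ± 162 in WF, and that of the 9 isomerase genes was 1004.1 ± 164 in Mr, 157 ± 10.4 in SF and 209.7 ± 55.0 in WF.

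At ES the differences from Mr were smaller in SF. Of the 15 genes, 10 were called in SF against Mr (35.6% of all genes) and 9 in WF against Mr (24.9% of all genes). HF00720, HF00721, HF35684, HF00723, HF25114, HF23861 and the newly assembled isomerase gene were lower in both, and HF24202 was lower in SF. HF00721 gave the largest fall in SF (-2.55, SE 0.44, limma adjusted p = 0.006999), 5.31 times lower than in Mr. HF00720 was 4.37 times lower in SF (-2.20, SE 0.32, limma adjusted p = 0.003794) and 6.47 times lower in WF (-2.68, SE 0.16, limma adjusted p = 0.0003341). HF25114 was 3.56 times lower in SF (-1.94, SE 0.35, limma adjusted p = 0.008056) 8.53 times lower in WF (-3.22, SE 0.38, limma adjusted p = 0.002984), where HF00721 was 9.42 times lower (-3.18, SE 0.12, limma adjusted p = 0.000124). The largest fall in WF was thus that of HF25114 on the log2(FPKM + 1) scale and that of HF00721 by the ratio of means.

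HF26996 and HF26997 were higher than in Mr in both comparisons at ES. The largest rises were that of HF26996 in SF (1.51, SE 0.21, limma adjusted p = 0.002878) and that of HF26997 in WF (1.301, SE 0.18, limma adjusted p = 0.005476). HF24200, HF25490, HF21441, HF03067 and HF28154 were not called at ES, with log2 fold changes of -0.29 to 0.11 in SF against Mr and of -0.61 to -0.26 in WF against Mr. The ratio of the summed synthase FPKM of Mr to that of SF was 13.3 at EB, went to 3.77 at ES and stood at 8.61 at LS. To that of WF it was 6.76, 5.95 and 4.84. For the isomerase genes the ratio of Mr to SF was 6.39, 2.57 and 4.57, and to WF 4.79, 4.001 and 4.59.

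At LS, 11 of the 15 genes were called in SF against Mr (32.7% of all genes) and 8 in WF against Mr (22.9% of all genes). HF00720, HF00721, HF35684, HF00723, HF25114, HF23861, HF24202 and HF28154 were lower in SF, and HF26997, HF26996 and HF21441 were higher. HF00721 gave the largest fall (-4.86, SE 0.83, limma adjusted p = 0.008063), 19.1 times lower in SF, and HF21441 the largest rise (1.13, SE 0.29, limma adjusted p = 0.0281). HF00720 was 9.59 times lower (-3.45, SE 0.46, limma adjusted p = 0.003953) and HF25114 12.2 times lower (-4.67, SE 1.001, limma adjusted p = 0.01638). Without the 2 libraries that held WF transcripts, a check chosen after the data were seen, 10 genes were called, 9 of them among the 11. Without SF replicate 1 alone 12 were called. The count fell to 4 without SF replicate 2, to 6 without Mr replicate 1 or Mr replicate 2, and to 7 without Mr replicate 3.

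In WF against Mr at LS, HF00720, HF25114, the newly assembled isomerase gene, HF24202, HF03067 and HF28154 were lower and HF26997 and HF26996 higher. HF25114 gave the largest fall (-5.02, SE 0.68, limma adjusted p = 0.007725), 24.4 times lower, and HF26996 the largest rise (0.96, SE 0.17, limma adjusted p = 0.01406). HF00720 was 5.44 times lower by the means (-3.08, SE 0.83, limma adjusted p = 0.04689), and all 3 Mr flowers lay above all 3 WF flowers. HF00721 (-4.29) and HF35684 (-3.34) were not called. WF replicate 2 stood far above its group in these genes: without it 13 of the 15 genes were called, and without WF replicate 1, WF replicate 3, Mr replicate 1, Mr replicate 2 or Mr replicate 3 the counts were 4, 2, 2, 2 and 3.

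Few of the genes were called between SF and WF. An unadjusted p under 0.05 was held by 7 of the 15 and 7476 of all genes at EB, and by 5 and 6585 at ES. With 3 flowers per group, a gene that was not called may still differ. At EB, 1 of 15 was called where 7.59% of all genes were: HF21441, with 19.6 ± 7.30 FPKM in SF and 6.97 ± 1.28 FPKM in WF (SD, n = 3), 1.32 higher in SF (SE 0.28, limma adjusted p = 0.04602). At ES, 2 of 15 were called where 8.14% of all genes were, HF35684 and the newly assembled isomerase gene, both higher in SF. HF35684 stood at 35.0 ± 2.48 FPKM in SF and 10.3 ± 1.04 FPKM in WF (1.67, SE 0.11, limma adjusted p = 0.000759), and the newly assembled isomerase gene was 1.10 higher. At LS none of the 15 was called with limma where 3.35% of all genes were, 1 had an unadjusted p under 0.05, and limma voom called none. Without SF replicate 1, which held WF transcripts, the count with limma was also 0. With all 9 groups in 1 fit, 2 of the 15 were called at LS.

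HF00720 did not pass the test between SF and WF at any stage, with log2 fold changes of -1.23 at EB (SE 0.48, limma adjusted p = 0.1804), 0.48 at ES (SE 0.32, limma adjusted p = 0.4655) and -0.37 at LS (SE 0.94, limma adjusted p = 0.9164). HF25114 gave -0.40 at EB (SE 0.29, limma adjusted p = 0.4297), 1.28 at ES (SE 0.51, limma adjusted p = 0.2161) and 0.34 at LS (SE 1.23, limma adjusted p = 0.9445). The standard errors at LS do not show that SF and WF were alike there. The call of HF21441 at EB was lost without SF replicate 1 or 2 or without any of the WF replicates. In 1 fit of all 9 groups HF21441 was not called at EB and HF26997 was, 0.55 higher in SF (limma adjusted p = 0.01411). At ES 1 call remained without SF replicate 1, SF replicate 2, WF replicate 1 or WF replicate 2.

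**Figure D3:**
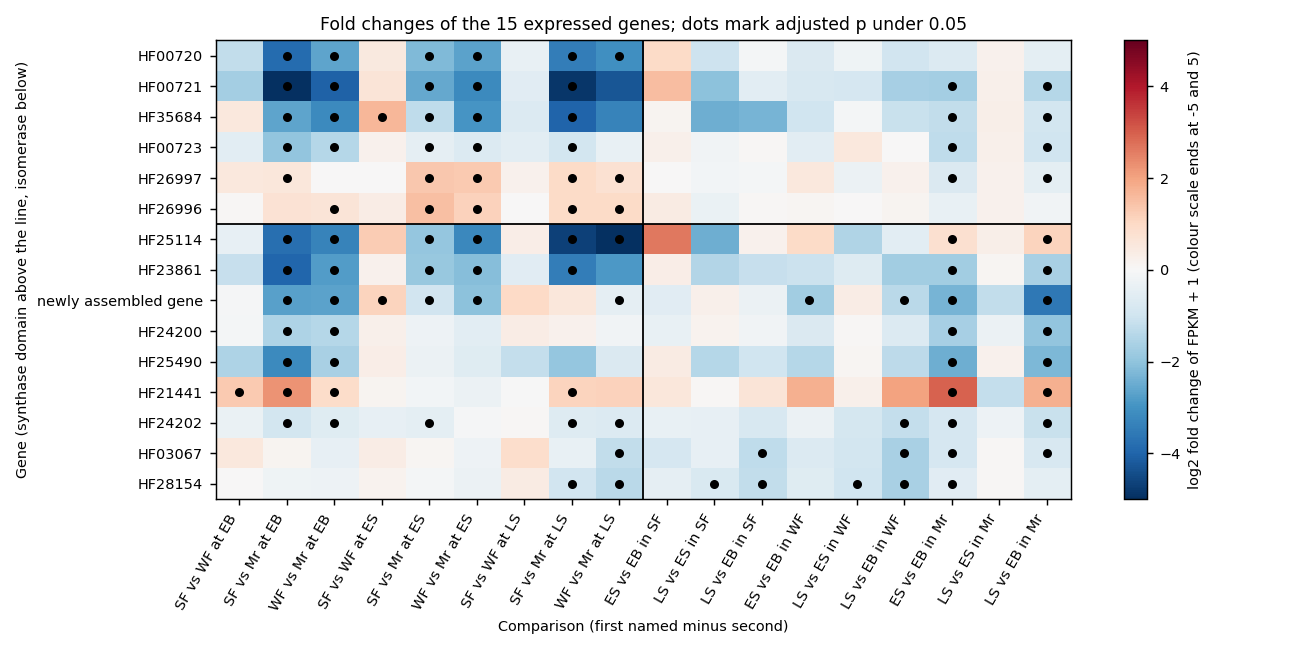
Log2 fold change of FPKM + 1 for each of the 15 genes (rows) in the 9 comparisons between materials (left of the line) and the 9 between stages (right of the line), red where the first-named group is higher, blue where it is lower, with a dot where the adjusted p is under 0.05. The columns of SF and WF against Mr are mostly blue, from -5.77 for HF00721 in SF at EB, and HF21441, HF26997 and HF26996 are red in most of them.

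The second question was how the genes change as the flower opens. In Mr, 13 of 15 genes were called between ES and EB, where 41.9% of all genes were called. HF25114 rose from 225 ± 21.4 to 396.8 ± 21.4 FPKM (SD, n = 3, log2 fold change 0.82, SE 0.09, limma adjusted p = 0.002372), and HF21441 rose from 3.26 ± 1.07 to 31.4 ± 2.41 FPKM (2.96, SE 0.20, limma adjusted p = 0.0006683). The other 11 fell: HF00721, HF35684, HF00723, HF26997, HF23861, the newly assembled isomerase gene, HF24200, HF25490, HF24202, HF03067 and HF28154. HF25490 fell most, 5.62 times (-2.45, SE 0.28, limma adjusted p = 0.002221). HF00720 (-0.68, SE 0.24, limma adjusted p = 0.06531) and HF26996 (-0.38) did not pass the test. The median log2 fold change of the 15 genes was -0.84 and that of all genes 0.

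Between LS and ES in Mr none of the 15 genes and none of all genes (0%) was called with limma, with 3 of the 15 and 4494 of all genes at an unadjusted p under 0.05. With limma voom none of the 15 was called, and without Mr replicate 2 at LS, which held WF transcripts, the count with limma was also 0. In 1 fit of all 9 groups 1 of the 15 was called. The study's own test (DESeq2) reported differing genes between these stages, so the 0% does not show that no gene changed. HF00720 gave 0.20 (SE 0.21, limma adjusted p = 0.7203) and HF25114 0.30 (SE 0.15, limma adjusted p = 0.4255). Between LS and EB in Mr 12 genes were called, where 45.5% of all genes were, and the direction was as at ES: HF25114 (1.12, SE 0.14, limma adjusted p = 0.001841) and HF21441 (1.76, SE 0.30, limma adjusted p = 0.005889) rose, and HF00721, HF35684, HF00723, HF26997, HF23861, the newly assembled isomerase gene, HF24200, HF25490, HF24202 and HF03067 fell. The largest fall was that of the newly assembled isomerase gene, from 178 ± 20.7 to 13.9 ± 0.72 FPKM (-3.58, SE 0.10, limma adjusted p = 7.837e-05), 12.8 times. HF00720 did not pass the test (-0.48, SE 0.24, limma adjusted p = 0.1526). Without Mr replicate 2 at LS 9 genes were called.

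In SF, none of the 15 genes and none of all genes (0%) was called between ES and EB with limma, with 7 of the 15 and 5411 of all genes at an unadjusted p under 0.05, and limma voom called none of the 15. In 1 fit of all 9 groups 2 of the 15 were called. The study's own test (DESeq2) reported differing genes in this comparison, so the 0% does not show that no gene changed. HF25114 stood at 16.2 ± 4.96 FPKM at EB and 111.6 ± 55.0 FPKM at ES (SD, n = 3), with no overlap and a log2 fold change of 2.63 (SE 0.42, limma adjusted p = 0.0883). HF00720 gave 0.97 (SE 0.42, limma adjusted p = 0.3055). Between LS and ES in SF 1 gene was called, HF28154, lower at LS (-0.78, SE 0.20, limma adjusted p = 0.04591), where 19.3% of all genes were called. Its level in SF at LS rests on 3 to 17 fragments per library. Without SF replicate 1 at LS, which held WF transcripts, 6 genes were called, and without any other library of the comparison none was. HF25114 gave -2.43 (SE 1.09, limma adjusted p = 0.158) and HF00720 -1.05 (SE 0.55, limma adjusted p = 0.2089).

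Between LS and EB in SF, HF03067 and HF28154 were called lower at LS, 2 of 15 where 16.1% of all genes were called. HF03067 fell 2.67 times, from 11.2 ± 1.61 to 4.18 ± 1.63 FPKM (-1.27, SE 0.28, limma adjusted p = 0.0359). HF00720 gave -0.08 (SE 0.53, limma adjusted p = 0.9343) and HF25114 0.20 (SE 1.06, limma adjusted p = 0.9147). No gene was called without SF replicate 1, 2 or 3 at EB or without SF replicate 2 or 3 at LS, and 3 were called without SF replicate 1 at LS.

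In WF, the newly assembled isomerase gene was the gene called between ES and EB, 1 of 15 where 1.65% of all genes were called, and it fell 3.53 times from 27.4 ± 4.99 to 7.77 ± 2.80 FPKM (-1.73, SE 0.26, limma adjusted p = 0.04551). HF25114 gave 0.96 (SE 0.43, limma adjusted p = 0.263) and HF00720 -0.74 (SE 0.41, limma adjusted p = 0.3465). Between LS and ES in WF 1 gene was called, where 0.964% of all genes were, HF28154 (-1.01, SE 0.14, limma adjusted p = 0.04836). Its level in WF at LS rests on 0 to 5 fragments per library. HF00720 gave -0.20 (SE 0.84, limma adjusted p = 0.9105) and HF25114 -1.50 (SE 0.78, limma adjusted p = 0.3066). The call of the newly assembled isomerase gene was lost without any EB library or without WF replicate 1 or 2 at ES. Between LS and ES, 2 genes were called without WF replicate 2 at LS and none without any other library.

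Between LS and EB in WF, 4 genes were called, all lower at LS, where 17.7% of all genes were called: the newly assembled isomerase gene, HF24202, HF03067 and HF28154. HF03067 fell 4.01 times, from 7.42 ± 1.155 to 1.85 ± 1.02 FPKM (-1.62, SE 0.31, limma adjusted p = 0.02345). HF00720 gave -0.94 (SE 0.93, limma adjusted p = 0.4898) and HF25114 -0.54 (SE 0.71, limma adjusted p = 0.6028). The main synthase genes HF00720, HF00721, HF35684 and HF00723 thus passed no test between stages in SF or WF. This holds for limma fits of the compared groups with all libraries. Between LS and ES in SF, more genes were called without the library that held WF transcripts or with all groups in the fit. HF35684 held 32.1 to 36.5 FPKM in SF at ES and 1.39 to 25.8 FPKM at LS, without overlap. Its log2 fold change was -2.45 (SE 0.87, limma adjusted p = 0.09679). The other main synthase genes overlapped there. That HF35684 was not called does not show that it was stable in SF. Between ES and EB, none of all genes was called in SF and 1.65% were in WF. In Mr, HF00721, HF35684 and HF00723 were called lower at ES and at LS than at EB. Calls in Mr beside none in SF or WF do not show that the materials differ. The interaction test that follows compares them for the change from EB to ES.

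Whether the change from EB to ES differed between materials was tested as an interaction. The change in SF against that in Mr was called for 10 of 15 genes, where 9.23% of all genes were called. It was higher in SF for HF00721 (3.22, SE 0.60, limma adjusted p = 0.01329), HF25490 (2.88), HF23861 (2.05), HF25114 (1.82, SE 0.45, limma adjusted p = 0.03369), the newly assembled isomerase gene (1.76), HF00723 (1.496), HF35684 (1.38), HF24200 (1.29) and HF26997 (0.78), and lower for HF21441 (-2.39, SE 0.55, limma adjusted p = 0.02657). For HF00720 it was 1.66 (SE 0.50, limma adjusted p = 0.06361), which did not pass. The median over the 15 genes was 1.38 and over all genes 0.00. The count was 5 without SF replicate 2 at ES, without Mr replicate 1 or Mr replicate 2 at EB or without Mr replicate 2 at ES, and 6 without SF replicate 1 at ES.

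The change in WF against that in Mr was called for HF24200 (0.93) and HF26997 (1.28, SE 0.22, limma adjusted p = 0.01529), 2 of 15 where 3.38% of all genes were called. HF00720 gave -0.06 (SE 0.49, limma adjusted p = 0.9674) and HF25114 0.14 (SE 0.46, limma adjusted p = 0.9059). No call was left without Mr replicate 1 at EB, and 1 or 2 were left without each other library. For the change in SF against that in WF, none of the 15 and none of all genes (0%) was called with limma, with 8 of the 15 and 2184 of all genes at an unadjusted p under 0.05, and none of the 15 was called with limma voom. HF00720 gave 1.71 (SE 0.62, limma adjusted p = 0.5849) and HF25114 1.68 (SE 0.63, limma adjusted p = 0.6068).

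The same flowers were high or low in some of the genes. Across the 27 libraries on log2(FPKM + 1), 7 genes chosen after their values were seen (HF00720, HF00721, HF35684, HF00723, HF23861, HF25490 and HF25114) had pairwise Pearson correlations of 0.50 to 0.99, with a median of 0.84 over 21 pairs. HF00720 and HF00721 were closest, at 0.99. After the mean of each of the 9 groups was removed, the 21 values ran from 0.51 to 0.98 with a median of 0.79, and HF23861 and HF25490 were closest at 0.98. Over all 105 pairs of the 15 genes the median was 0.53 across libraries (-0.86 to 0.99) and 0.02 within groups (-0.85 to 0.98). The lowest of both was that of HF21441 with HF25490. The libraries of an SF or WF group come from the same tree, and how many Mr trees were sampled is not given. Genes of a library share its depth and its tissue, so these values describe the 27 libraries.

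The flowers that stood apart in these genes also stood apart in many others. The first axis of the deviations from group means of the genes tested, the 15 left out, held 33.3% of their variance. The correlation with it over 27 libraries was 0.83 for HF25490, 0.78 for HF23861, 0.72 for HF00721, 0.69 for HF00720, 0.63 for HF00723, 0.62 for HF35684, 0.44 for HF25114 and -0.86 for HF21441. It was -0.55 for HF24200 and between -0.16 and 0.37 for the remaining 6. An absolute correlation of at least 0.7 was reached by 4 of the 15 and by 13.6% of the other genes. The part of this axis in the differences between groups was not tested.

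**Figure D4:**
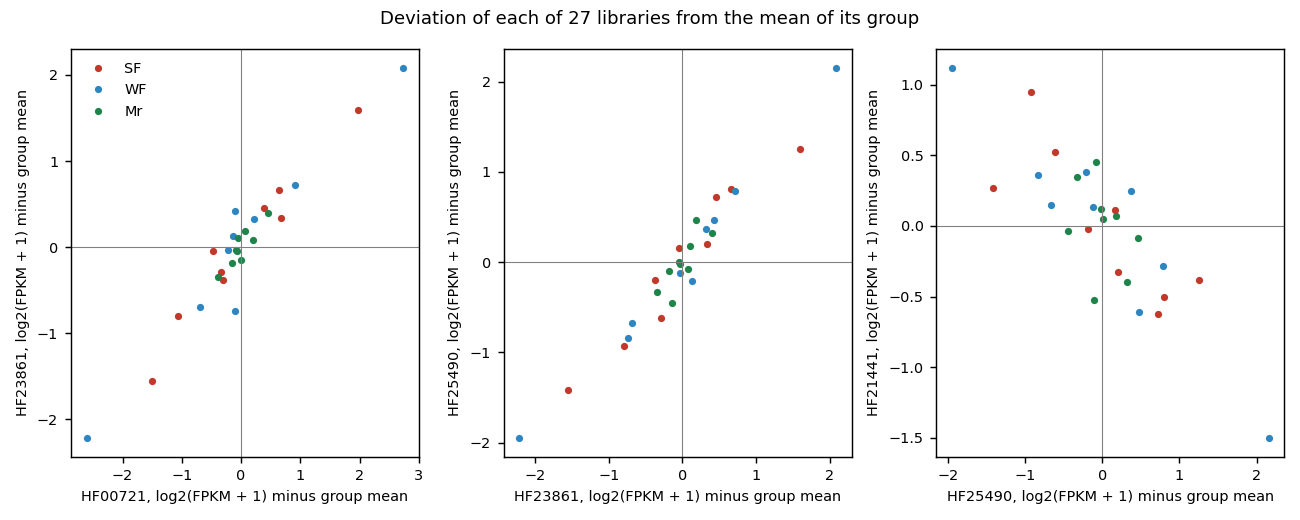
Deviation of log2(FPKM + 1) from the group mean in each of 27 libraries, for HF23861 against HF00721 (left), HF25490 against HF23861 (middle) and HF21441 against HF25490 (right), coloured by material. The first 2 panels rise (within-group correlations 0.96 and 0.98) and the last falls (-0.85), and the points farthest out are WF flowers at LS.

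Replicate 1 of SF at LS, 1 of the 2 libraries with transcripts of another material, was the highest SF flower at LS in HF00720, HF00721, HF35684, HF00723, HF23861, HF25490 and HF25114. It held 150.1 FPKM of HF00720 and 107 FPKM of HF25114. The share of 7.203% of the highest WF flower at LS would be 23.7 and 3.26 FPKM of these, and the share of 4.179% of the highest Mr flower would be 39.8 and 24.1 FPKM. The Mr share came from genes also found in WF: of the 3 checked genes not found there, none exceeded 0.1 FPKM in this library. In replicate 2 of Mr at LS the share of 17.33% of the highest WF flower would be 57.0 FPKM of the 745 FPKM of HF00720 and 7.84 FPKM of the 443 FPKM of HF25114. The share of 8.885% of the highest SF flower would be 13.3 and 9.47 FPKM, and of the 8 checked SF genes not found in WF none exceeded 0.1 FPKM in that library. The part of such transcripts in the results at LS was not tested beyond leaving the libraries out.

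The 13 genes that did not enter the tests were 12 synthase genes and the isomerase gene HF25115, which lies 3585 bases from HF25114 and reached at most 0.231 FPKM. Of the 13, 8 stayed under 1 FPKM in all libraries and 5 reached 1 FPKM in a single library. HF21790 and HF21791 on chromosome 8 had no fragment in any library, and a count of 3 fragments would have given HF21790 an FPKM of 0.0926 to 0.188. HF14542 and HF14543 (chromosome 7), HF10379 (chromosome 5) and HF41469 (chromosome 14) reached at most 0.268, 0.151, 0.0728 and 0.0608 FPKM. Being near 0 in these whole flowers at this depth does not show that a gene is silent in the plant.

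In replicate 2 of SF at LS several of these synthase genes were present together. HF41470 (chromosome 14, 24482338 to 24483876, minus strand) stood at 16.99 FPKM from 324 fragments and HF12609 (chromosome 15, 9760288 to 9761843, minus strand) at 14.34 FPKM from 272 fragments, against at most 0.63 and 0.24 FPKM in any other library. HF12608, a newly assembled gene (9784957 to 9786175) and HF12607, which lie beside HF12609 on chromosome 15, stood at 1.373, 1.35 and 0.262 FPKM in the same flower, from 58, 18 and 5 fragments. Near-identical neighbours may share these reads. The other 2 flowers of the group did not show this, so no comparison can be made from it. The remaining gene, newly assembled on chromosome 13 (43109512 to 43110802), reached 1.751 FPKM in replicate 1 of SF at EB.

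Other enzyme families of the pathway were counted by their domains. Of 8 genes with an aromatic amino acid lyase domain, the family of phenylalanine ammonia-lyase at the entry of the phenylpropanoid pathway, 6 were tested. Against Mr, 2 were called lower in SF at EB and at ES and 3 at LS, and the same counts held for WF, with none higher. The share of all genes called, in either direction, was 41%, 35.6% and 32.7% in SF against Mr at EB, ES and LS and 35.3%, 24.9% and 22.9% in WF against Mr, and at EB and ES the 2 of 6 lyase genes are near it. Of 101 tested 2-oxoglutarate dioxygenases, a large family that includes flavanone 3-hydroxylase, flavonol synthase and anthocyanidin synthase, 28 were higher and 21 lower in SF than in Mr at EB. These counts became 28 and 30 at ES, then 21 and 26 at LS. In WF against Mr, 34 were higher and 20 lower at EB, and the counts at ES were 20 and 23 and those at LS 19 and 19. Up to 58 of the 101 were thus called, beside a background that was high for all genes, and nothing particular to the family is read from these counts.

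Of 47 tested genes with an NAD-dependent epimerase domain, the family that includes dihydroflavonol reductase, 16 were higher and 11 lower in SF than in Mr at EB. At ES the counts were 14 and 11, and at LS 12 and 9. In WF against Mr, 14 were higher and 9 lower at EB, while ES had 10 and 10 and LS had 12 and 8. Of 21 tested genes with the PF08392 domain, related to the synthases and known from fatty acid elongation, 6 were higher and 3 lower in SF than in Mr at EB, while ES had 4 and 2 and LS had 0 and 3. In WF against Mr, 7 were higher and 1 lower at EB. ES had 2 and 2, and LS had 2 and 5. The median log2 fold change in SF against Mr at EB was -0.16 for the lyase genes, 0.13 for the dioxygenases, 0.06 for the epimerase genes and 0.06 for the PF08392 genes, beside -2.30 for the 6 synthase genes and -1.55 for the 9 isomerase genes.

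Between SF and WF, where 7.59%, 8.14% and 3.35% of all genes were called at EB, ES and LS, none of the 6 lyase genes was called at any stage with limma, and 1, 1 and 0 had an unadjusted p under 0.05 at EB, ES and LS. At EB, 6 dioxygenases were higher and 9 lower in SF, as were 3 and 1 epimerase genes and 1 and 2 PF08392 genes. At ES 5 dioxygenases were lower and 4 epimerase genes higher in SF. At LS 2 dioxygenases were higher and 1 lower, and 1 epimerase gene was higher and 1 lower.

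The genes most like HF00721 across the 27 libraries were sought among 29659 other genes on log2(FPKM + 1), with a limit of 0.9 on the Pearson correlation that was chosen after the values were seen. It was reached by 41 genes (0.138%). They included HF00720 (0.99), HF23861 (0.98) and HF35684 (0.93), and, from the other families, the lyase genes HF01560 (0.96) and HF04849 (0.91) and the dioxygenases HF08300 (0.94) and HF01905 (0.91), 2 of 6 and 2 of 101. At EB, HF01560 had a mean of 230.2 FPKM in Mr, 3.96 FPKM in SF and 6.53 FPKM in WF, and HF08300 328 FPKM in Mr, 10.7 FPKM in SF and 40.4 FPKM in WF. Both were picked for their likeness to HF00721 in these same libraries, so their higher level in Mr is no separate result. None of the 47 epimerase genes or the 21 PF08392 genes reached the limit.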

How the data were processed

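The authors sampled individual flowers of the 3 materials, sequenced RNA of whole flowers as 150 bp paired-end reads and mapped the reads to the apple HFTH1 genome. How many flowers made up a library is not given in the sources used here. Per the labels, the stage called early balloon in the study is the small balloon stage. The submitters' processing notes name StringTie 1.3.3b and DESeq2 1.16.1, with no role for either. The aligner and any strand setting are not named in the sources used here. The authors deposited FPKM for 48445 genes in 27 libraries, together with gene lengths, which are coding lengths for genes with HF identifiers (98.1% are multiples of 3, against 33.4% for newly assembled genes). Libraries were matched to groups by the sample labels.

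Fragments were recovered from the deposited FPKM and the gene length, and of the 771148 values below 1000 fragments 100.0% came out whole to within 0.05. The FPKM denominators followed a median-of-ratios scaling (largest over smallest ratio to the size factors 1.0). For a gene of 1 kb, 3 fragments correspond to an FPKM of 0.095 to 0.193, which covers counting error only. No 2 replicates of a group agreed within sampling noise (lowest chi-square per degree of freedom 4.62), and replicate numbers did not pair libraries, since in 0 of 18 comparisons did all same-numbered libraries correlate above 0.1.

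The tests used limma (version 3.58.1, R 4.3.3) with a trended variance on the log2 of FPKM + 1, over the 29660 genes that reached an FPKM of 1 in 3 or more libraries. Each fit held the groups compared, and interactions the 4 groups. Genes with a Benjamini-Hochberg adjusted p below 0.05 were called, whatever the fold change. The script was tested on simulated data. Alternatives were a pseudocount of 0.1, no filter, scaling by total fragments, limma voom on the fragments, a replicate block, 1 fit over all 9 groups, and each library left out. The other values and the plots came from Python 3.11.15 (pandas 2.3.3, numpy 2.4.6, matplotlib 3.10.9).

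All 28 genes were counted. Values in every library were given for the 6 synthase and 4 isomerase genes of highest mean FPKM, and for others called with a log2 fold change beyond 1 in either direction between groups that did not overlap. Test statistics were given for HF00720, HF25114 and the largest rise and fall of each comparison. The other families were lists of domains (PF00221, PF14226 with PF03171, PF01370 and PF08392). The genes and lists were chosen with earlier results of these data known. Libraries with WF transcripts were found from genes at 0.1 FPKM or less in every other library of a material and 3 or more in every library of another material at the same stage. Newly assembled genes are given by position, and no sequences are shown because no genome was used here.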

Additional observations from a re-analysis of the deposited data

Results flagged for a closer look

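The change from EB to ES differed between SF and Mr, by the interaction test in limma, in 10 of the 15 genes (9.23% of all genes tested). The count was 4 with all 9 groups in 1 fit, 5 without the filter and 6 with a replicate block. It stayed within 1.5 times of 10 under the other settings of the fit, and it also fell without some single libraries. On the log2(FPKM + 1) scale the change in SF exceeded that in Mr by 3.217 for HF00721 (SE 0.60, limma adjusted p = 0.01329), 2.878 for HF25490, 2.046 for HF23861, 1.815 for HF25114, 1.756 for the newly assembled isomerase gene, 1.496 for HF00723, 1.381 for HF35684, 1.287 for HF24200 and 0.7758 for HF26997. HF21441, the model that joins an isomerase with a glycosyl hydrolase domain, was the exception at -2.389. The change in WF differed from that in Mr by 0.93 for HF24200 and by 1.285 for HF26997. The interactions of SF and of WF share the Mr libraries.

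Some of the synthase genes left out of the tests were present in a single flower. In replicate 2 of SF at LS, HF41470 stood at 16.99 FPKM, HF12609 at 14.34 FPKM, HF12608 at 1.373 FPKM and the newly assembled gene beside it on chromosome 15 at 1.35 FPKM, above the limit of 3 fragments and above every other library. In replicate 1 of SF at EB, the newly assembled synthase gene on chromosome 13 stood at 1.751 FPKM, from 17 fragments.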

How the results depend on the processing

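Of 850 fold changes of named genes recomputed under the alternatives, 718 kept their direction and their side of the threshold, 104 lost a call and 11 gained a call. The other 17, none of which was called, changed sign, and all were of HF00720 or HF25114. The counts of called genes stayed within 1.5 times of those reported in 175 of 271 cases. Of the counts for SF and WF against Mr at EB and ES and for ES or LS against EB in Mr, none left that range under any alternative.

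Without the filter the counts were 0 for SF against WF at EB, 1 for SF against WF at ES, 5 for SF against Mr at LS, 0 for LS against ES in SF, 0 for LS against EB in SF, 0 for ES against EB in WF, 0 for LS against ES in WF, 5 for the change in SF against Mr and 1 for the change in WF against Mr. With all 9 groups in 1 fit they were 1 for SF against WF at ES, 2 for SF against WF at LS, 2 for ES against EB in SF, 4 for LS against ES in SF, 4 for LS against EB in SF, 5 for ES against EB in WF, 3 for LS against ES in WF, 1 for LS against ES in Mr, 4 for the change in SF against Mr and 1 for the change in WF against Mr. Scaling by total fragments gave 4 for WF against Mr at LS, 0 for LS against ES in SF and 2 for ES against EB in WF. It moved the median of all genes by over 0.1 in WF against Mr at ES (0.1185), ES against EB in Mr (-0.1288) and the changes in SF (0.1521) and WF (0.1653) against Mr, and turned HF00720 in the last to 0.1376. A pseudocount of 0.1 gave 0 for LS against ES in SF, 0 for LS against ES in WF and 1 for the change in WF against Mr. With voom the counts were 0 for LS against ES in SF, 2 for ES against EB in WF, 0 for LS against ES in WF and 1 for the change in WF against Mr, and 0 in each comparison where limma on FPKM called none of the 15 genes.

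Replicate numbers did not pair the libraries. With a replicate block the counts were 0 for SF against WF at EB, 2 for WF against Mr at LS, 0 for LS against ES in SF, 0 for LS against EB in SF, 0 for ES against EB in WF, 0 for LS against ES in WF, 1 for LS against EB in WF, 6 for the change in SF against Mr and 1 for the change in WF against Mr.

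With each library left out in turn, the counts ran from 0 to 1 for SF against WF at EB, 1 to 2 for SF against WF at ES, 4 to 12 for SF against Mr at LS, 2 to 13 for WF against Mr at LS, 0 to 6 for LS against ES in SF, 0 to 3 for LS against EB in SF, 0 to 1 for ES against EB in WF, 0 to 2 for LS against ES in WF, 0 to 1 for LS against ES in Mr, 5 to 11 for the change in SF against Mr and 0 to 2 for the change in WF against Mr. The uncalled fold changes that changed sign ran, for HF00720, from -1.174 to 0.5377 in SF against WF at LS, -0.613 to 0.2686 in LS against EB in SF, -1.107 to 0.6045 in LS against ES in WF and -0.4534 to 0.376 in the change in WF against Mr. For HF25114 they ran from -0.8994 to 1.151 in SF against WF at LS, -1.044 to 0.8833 in LS against EB in SF and -0.3163 to 0.3687 in the change in WF against Mr. The cause of these shifts was not tested. With 3 flowers per group and SF and WF widely spread at LS, a gene that was not called there may still differ.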
